A study of Danio rerio with 9 samples.

Results

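The genes described here are 9 homeobox genes of the Msx and Dlx families, *msx1a*, *msx1b*, *msx2b*, *msx3*, *dlx1a*, *dlx2a*, *dlx3b*, *dlx4b* and *dlx5a*. They were chosen by symbol, with earlier results of these data known. They are 9 of the 41977 gene rows in the count tables, of which 28260 had a count in some library. Their transcript levels were measured by poly(A) RNA-sequencing in 9 samples of whole zebrafish embryos of the wild type TE strain, with 10 embryos pooled in each sample and 3 samples in each group. Embryos of the first group were left uninjected and received no control mRNA. Embryos of the *bmp*-overexpressing group received 10 pg of mRNA encoding Bmp2b, and those of the *chordin*-overexpressing group received 100 pg of mRNA encoding Chordin, in both cases at the one-cell stage. All 3 groups were frozen when the uninjected siblings were at shield stage (6.75 hpf), so that the comparisons ask which genes respond to more or less BMP signaling at the start of gastrulation. In the comparisons with uninjected embryos, an effect of the injection itself cannot be told apart from one of BMP signaling. The 3 samples of a group are labelled as replicates, but nothing states that they came from separate clutches, and p-values measure the spread between these samples, which may be technical.

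Msx and Dlx proteins are homeodomain transcription factors, related to *Drosophila* muscle segment homeobox and Distal-less. In vertebrate gastrulae, members of both families mark the non-neural ectoderm and the border of the neural plate, from which neural crest and sensory placodes arise, and BMP is a known upstream signal there. BMP ligands such as Bmp2b act ventrally, and Chordin is a secreted protein that binds BMP ligands on the dorsal side and keeps them from their receptors. Many Dlx genes lie in convergently transcribed neighbour pairs.

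Sequencing depth ranged from 8861308 to 22372856 counts per library, so that a level of 3 counts, taken as the detection limit, corresponded to between 0.129 and 0.340 CPM (CPM are counts scaled to library size with TMM factors over all 9 libraries). The injected genes followed the labels. *bmp2b* averaged 828 CPM in the *bmp* libraries against 107 CPM in the uninjected ones (log2 fold change 2.97), and *chd* averaged 1889 CPM in the *chordin* libraries against 209 CPM in the uninjected ones (log2 fold change 3.198). Markers of gastrula ectoderm (*sox3*, *sox2*, *foxi1* and *gata2a*) were present in every library, with a summed level of 487 to 1108 CPM. Of the defining neural crest genes, *crestin* was at 0 in all 9 libraries, and the summed level of *sox10*, *crestin* and *mitfa* lay between 0.227 and 3.14 CPM.

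In *bmp*-overexpressing embryos 5 of the 9 genes rose, *msx1a*, *msx3*, *dlx1a*, *dlx2a* and *dlx3b*. Only 6 of the 9 were tested, and of these 0 fell by limma, and 0 at an unadjusted p under 0.05. Among all genes tested, 1.72% were called higher and 1.43% were called lower. *dlx1a*, and *dlx2a* but for 1 uninjected library, were high enough to be tested in the *bmp* libraries alone. *msx1b* was not called and had overlapping groups, and the other 3 were near the detection limit or too low to enter the fit. In *chordin*-overexpressing embryos a single member of the 5 tested, *msx1b*, fell past the threshold, where 0.301% of all genes tested were called lower. *msx1a* and *msx3* were lower in every *chordin* library than in any uninjected library, as were 7.29% of all genes tested. Neither passed the test across all genes, and both were high enough to be tested in the uninjected libraries alone. These statements describe amounts of RNA in pooled whole embryos, in which fewer expressing cells and less RNA per cell cannot be told apart.

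**Figure D1:**
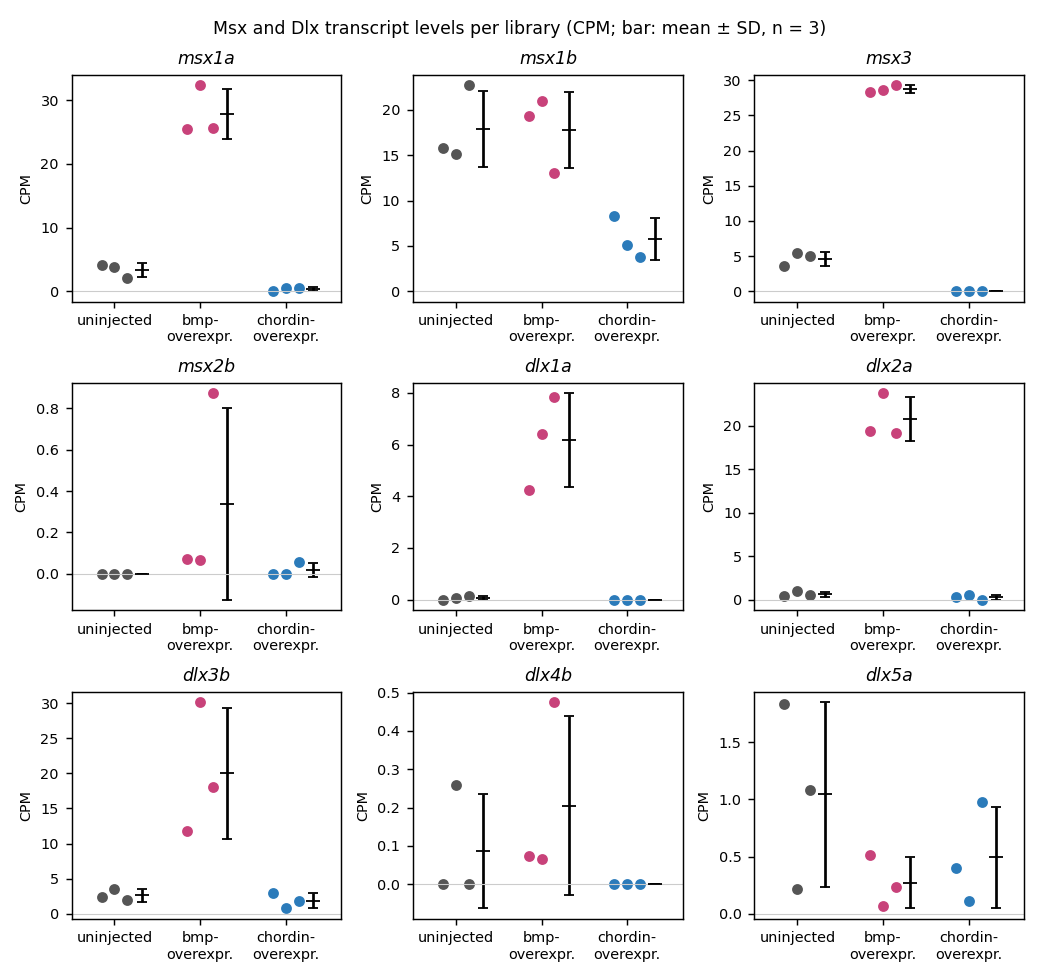
CPM (y axis) of each of the 9 Msx and Dlx genes in uninjected, *bmp*-overexpressing and *chordin*-overexpressing embryos, with 1 point per library in replicate order and a bar for the mean ± SD (n = 3). Each panel has its own y axis starting near 0. The *bmp* points of *msx1a*, *msx3*, *dlx1a*, *dlx2a* and *dlx3b* stand above all others, whereas those of *msx1b* overlap with the uninjected points.

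*msx1a*, *msx1b* and *msx3* are the Msx genes that act together at the zebrafish neural plate border, and RefSeq lists them under the older names *msxe*, *msxb* and *msxc*. *msx1a* (GRCz10 chr14:241572-243460) had 4.19, 3.75 and 2.02 CPM in the uninjected libraries, 25.6, 32.4 and 25.7 CPM in the *bmp* libraries, and 0, 0.566 and 0.519 CPM in the *chordin* libraries. The 3 groups did not overlap for this gene. The rise with *bmp* was 3.08 on the log2 scale (SE 0.38, adjusted p = 6.73e-07, limma), from a mean of 3.32 ± 1.15 to 27.9 ± 3.91 CPM (SD, n = 3). In the *chordin* libraries 0, 5 and 9 reads were counted, against 64, 87 and 28 in the uninjected libraries. The fitted log2 fold change there was -3.73 with a 95% interval from -6.77 to -0.69, and it did not pass the threshold (SE 1.48, adjusted p = 0.379, limma).

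*msx3* (GRCz10 chr13:24531788-24534219) had 3.54, 5.43 and 4.98 CPM in the uninjected libraries, and 28.3, 28.6 and 29.3 CPM in the *bmp* libraries. The *bmp* libraries were closer to each other for this gene (28.7 ± 0.548 CPM, SD, n = 3) than for the other members that rose. The rise was 2.62 on the log2 scale (SE 0.32, adjusted p = 4.74e-07, limma). In the *chordin* libraries *msx3* was close to undetected, with 1, 0 and 1 counts, against 54, 126 and 69 counts in the uninjected libraries. Summed over the 3 libraries, the uninjected level was 92.3 times the *chordin* level, with a 95% interval from 25.3 to 766.1 that covers counting error only. The fitted log2 fold change of -5.81 (SE 1.54) missed the threshold (adjusted p = 0.0714, limma). It passed in 3 of 12 other settings, without the filter on low counts and with limma-trend among them, and its adjusted p lay between 0.000212 and 0.577 over the 12.

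*msx1b* (GRCz10 chr1:48708515-48710887) had 15.8, 15.1 and 22.8 CPM in the uninjected libraries, 19.3, 21.0 and 13.0 CPM in the *bmp* libraries, and 8.33, 5.10 and 3.80 CPM in the *chordin* libraries. The uninjected and *bmp* libraries overlapped, while every *chordin* library was below all 6 others. With *bmp* the log2 fold change was 0.048 (SE 0.247, adjusted p = 0.966, limma), and its 95% interval from -0.46 to 0.55 lay apart from those of *msx1a* (2.31 to 3.85) and *msx3* (1.97 to 3.26). The difference between the genes was not itself tested. With *chordin* the level fell by 1.70 on the log2 scale (SE 0.36, adjusted p = 0.00999, limma), from 17.9 ± 4.23 to 5.74 ± 2.33 CPM (SD, n = 3). This call was lost without *chordin* replicate 3, the library with the lowest value (log2 fold change -1.32, adjusted p = 0.199, limma).

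*msx2b*, a homologue of mammalian Msx2, was at the detection limit. It had 0 counts in the 3 uninjected libraries, 1, 1 and 11 counts in the *bmp* libraries and 0, 0 and 1 counts in the *chordin* libraries. Of the 13 counts with *bmp*, 11 came from *bmp* replicate 3. The *bmp* level was 5.51 times a floor of 3 counts summed over the uninjected group, counting error left out, and this value rests on that library. The gene was too low for the fit, and the exact two-sided permutation test on its CPM gave p = 0.1, the smallest value that 3 libraries against 3 allow. Its row (GRCz10 chr21:41278866-41312499) overlaps that of LOC101882859, which had 6 counts over the 9 libraries against 14 for *msx2b*, and the libraries carry no strand information, so that reads of overlapping genes could not be told apart.

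Of the Dlx members, *dlx3b* (GRCz10 chr12:5673466-5676963), which zebrafish need for the otic and olfactory placodes, had 2.36, 3.58 and 1.88 CPM in the uninjected libraries, 11.8, 30.2 and 18.1 CPM in the *bmp* libraries, and 3.01, 0.793 and 1.79 CPM in the *chordin* libraries. Every *bmp* library was above every other library, and the *bmp* libraries differed widely among themselves (20.0 ± 9.34 CPM, SD, n = 3). The rise was 2.81 on the log2 scale (SE 0.49, adjusted p = 0.000209, limma). The *chordin* and uninjected libraries overlapped. The log2 fold change there was -0.57 (SE 0.68, adjusted p = 0.848, limma), and its 95% interval from -1.95 to 0.82 leaves room for a fall as large as that of *msx1b* as well as for a small rise.

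*dlx2a* (GRCz10 chr9:3425878-3429200), known later from neural crest cells of the pharyngeal arches and from the forebrain, had 7, 23 and 7 counts in the uninjected libraries and 264, 355 and 242 counts in the *bmp* libraries, or 0.652 ± 0.295 and 20.8 ± 2.56 CPM (SD, n = 3). The *bmp* libraries, at 19.4, 23.7 and 19.2 CPM, were all above the others. The rise was 4.91 on the log2 scale (SE 0.83, adjusted p = 0.000138, limma). In the *chordin* libraries it had 4, 5 and 0 counts. These were too few for the fit, and the exact two-sided permutation test against uninjected embryos gave p = 0.3, with overlapping groups.

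*dlx1a* (GRCz10 chr9:3413972-3419326), the neighbour of *dlx2a* with overlapping sites of expression later on, was at the detection limit outside the *bmp* group. The uninjected libraries held 0, 1 and 2 counts and the *chordin* libraries 0, 0 and 0, which allows a level of up to 0.340 CPM in the shallowest library. The *bmp* libraries held 58, 96 and 99 counts, or 4.26, 6.41 and 7.85 CPM. From the summed counts the *bmp* level was 107 times the uninjected level (95% interval 36.3 to 523, counting error only). It was 79.4 times a floor of 3 counts summed over the *chordin* group, a ratio that leaves out counting error. The fitted log2 fold change with *bmp* was 6.38 (SE 1.62, adjusted p = 0.0176, limma). The call was lost whenever any of the 6 libraries was left out (adjusted p = 0.0664 to 0.197, limma), with log2 fold changes of 5.90 to 7.02.

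*dlx4b* and *dlx5a* stayed low in all groups. *dlx4b* was too low for every fit, and *dlx5a* entered only the fit with *chordin* against uninjected embryos, where it was not called. *dlx4b* (GRCz10 chr12:5684659-5693772), which acts with *dlx3b* in placode formation, had 0, 6 and 0 counts in the uninjected libraries, 1, 1 and 6 in the *bmp* libraries and 0, 0 and 0 in the *chordin* libraries. The *bmp* and uninjected libraries overlapped, and the exact permutation test between them gave p = 0.5. Every *bmp* library was above the *chordin* libraries (exact permutation p = 0.1, the smallest possible), at no more than 6 counts in a library. The *bmp* level was 2.51 times a floor of 3 counts summed over the *chordin* group, counting error left out. Its mean of 0.205 CPM lay within the range that 3 counts in a single *chordin* library correspond to (0.173 to 0.340 CPM). *dlx5a* (GRCz10 chr19:41885161-41887173), a gene of the pharyngeal arches and fin buds at later stages, had 28, 5 and 15 counts in the uninjected libraries, 7, 1 and 3 in the *bmp* libraries and 5, 1 and 17 in the *chordin* libraries. Its groups overlapped in each comparison. The mean levels of the uninjected, *bmp* and *chordin* groups were 1.04 ± 0.81, 0.273 ± 0.226 and 0.497 ± 0.442 CPM (SD, n = 3). The exact permutation test gave p = 0.3 with *bmp*, and the fit with *chordin* gave a log2 fold change of -0.34 (95% interval -3.20 to 2.52, adjusted p = 0.967, limma).

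**Figure D2:**
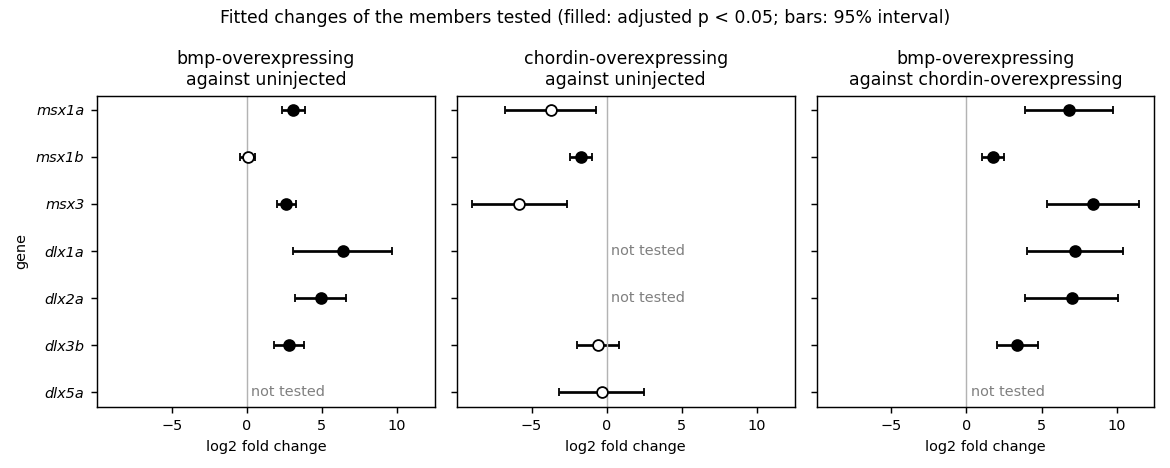
Fitted log2 fold change (x axis) with its 95% interval for each member that entered a fit (y axis), in the comparisons of *bmp*-overexpressing with uninjected, *chordin*-overexpressing with uninjected and *bmp*-overexpressing with *chordin*-overexpressing embryos. Filled points have an adjusted p under 0.05. With *bmp*, *msx1b* alone lies at 0 (0.048), and with *chordin* it is the single filled point (-1.70).

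Read against all genes, 5 of the 6 members tested were called higher with *bmp*, where 1.72% of the 16779 genes tested were called higher and 1.43% were called lower. Without uninjected replicate 1, 876 genes were called in place of 528. In the same 5 members every *bmp* library was above every uninjected library, as in 9.01% of all genes tested. The median log2 fold change of the 6 members was 2.95, and that of all genes tested was 0.0105. These counts hold *dlx1a*, which entered the fit through the *bmp* libraries alone, and *dlx2a*, which had a single uninjected library past the minimum of 0.693 CPM, so that both had to differ in order to be tested. *msx1a*, *msx1b*, *msx3* and *dlx3b* passed the minimum in all 6 libraries.

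With *chordin*, 1 of the 5 members tested was called lower, where 0.301% of the 16590 genes tested were called lower and 0.591% were called higher. Without uninjected replicate 1, 388 genes were called in place of 148. In 3 members, *msx1a*, *msx1b* and *msx3*, every *chordin* library was below every uninjected library, as in 7.29% of all genes tested. The median log2 fold change of the 5 members was -1.70, and that of all genes was 0.0038. *msx1a* and *msx3* entered this fit through the uninjected libraries alone. The comparisons with *bmp* and with *chordin* share the 3 uninjected libraries, so their values are given side by side here and were not correlated.

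The comparison of *bmp*-overexpressing with *chordin*-overexpressing embryos uses no uninjected library. All 6 members tested, *msx1a*, *msx1b*, *msx3*, *dlx1a*, *dlx2a* and *dlx3b*, were called higher with *bmp*, where 2.19% of the 16735 genes tested were called higher and 2.85% were called lower. Every *bmp* library was above every *chordin* library in these 6, as in 9.46% of all genes tested, and 4 of them (*msx1a*, *msx3*, *dlx1a* and *dlx2a*) entered the fit through the *bmp* libraries alone. The smallest of the differences were those of *msx1b* (log2 fold change 1.74, SE 0.36, adjusted p = 0.00139, limma) and *dlx3b* (3.38, SE 0.67, adjusted p = 0.000953, limma). *msx3* had a *bmp* level 557 times the *chordin* level by summed counts (95% interval 153.8 to 4603.7, counting error only). The median over the 6 members was 6.91, and the median of all genes was 0.010. With *dlx1a*, which had no count with *chordin*, set to its ratio to the floor of 3 counts, the median over the members was 6.57. Without *chordin* replicate 3 the calls of *msx1b* (log2 fold change 1.36, adjusted p = 0.0617, limma) and *dlx1a* (6.98, adjusted p = 0.105, limma) were lost. The call of *dlx1a* was also lost without *chordin* replicate 1 (adjusted p = 0.051, limma) and without *chordin* replicate 2 (adjusted p = 0.0582, limma).

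The make-up of the Msx transcripts differed between the groups. Shares are of the read counts of all 5 Msx genes in the table in each library and are not corrected for transcript length. In uninjected embryos *msx1b* held 64.7%, 62.2% and 76.5% of the Msx counts. In *bmp*-overexpressing embryos it held 25.9%, 25.0% and 18.9%, while the share of *msx3* was 38.2% ± 4.25 and that of *msx1a* 36.7% ± 2.27 (SD, n = 3), against 17.9% ± 4.09 and 13.1% ± 5.54 in uninjected embryos. In *chordin*-overexpressing embryos *msx1b* held 98.1%, 65.2% and 82.5%, and the share of *msx3* was 0.728% ± 0.65. The uninjected and *bmp* libraries did not overlap in the share of any of these 3 genes. Summed over the Msx genes, the uninjected, *bmp* and *chordin* groups had 26.2 ± 3.12, 75.8 ± 7.53 and 6.97 ± 2.07 CPM (SD, n = 3), with no overlap between groups.

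The Dlx transcripts were rearranged in another way. *dlx3b* kept a similar share of the counts of all 8 Dlx genes, at 41.6% ± 9.07, 37.3% ± 9.36 and 38.1% ± 20.7 in the uninjected, *bmp* and *chordin* groups (SD, n = 3), and the libraries of the groups overlapped. *dlx2a* went from 10.4% ± 3.58 in uninjected embryos to 41.0% ± 7.46 with *bmp*, and *dlx1a* from 1.10% ± 1.40 to 11.9% ± 2.41. *dlx5a* went from 17.6% ± 13.5 to 0.621% ± 0.623, a lower share of a larger total. Its own mean level was lower with *bmp* as well, at 0.273 against 1.04 CPM, though the libraries overlapped in CPM. The share of *dlx6a* was 14.6% ± 10.3, 2.59% ± 1.84 and 38.2% ± 21.0 in the uninjected, *bmp* and *chordin* groups, and in *chordin* replicate 2 it was 62.5% against 14.6% for *dlx3b*. Summed over the Dlx genes, the same groups had 6.16 ± 0.737, 51.9 ± 12.1 and 4.98 ± 0.97 CPM (SD, n = 3). The *bmp* libraries were all higher than the others, and the *chordin* libraries overlapped with the uninjected ones. The *chordin* shares rest on only 71, 48 and 67 counts.

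**Figure D3:**
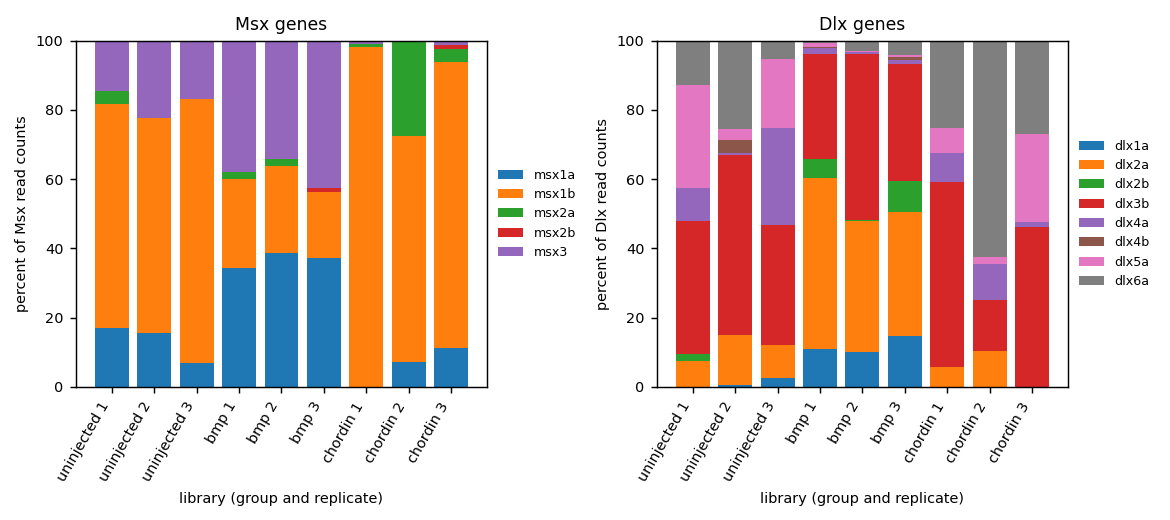
Percent of the read counts of all Msx genes (left) and all Dlx genes (right) held by each gene (stacked colours) in each library (x axis, group and replicate number). *msx1b* holds over 60% of the Msx counts in each uninjected and *chordin* library and at most 25.9% in the *bmp* libraries. In the Dlx panel *dlx1a* and *dlx2a* expand in the *bmp* libraries while *dlx3b* keeps a similar share, and the *chordin* bars rest on 71, 48 and 67 counts.

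Most of the Dlx genes lie in neighbour pairs, and the members of a pair did not all behave alike. *dlx2b* (chromosome 1) and *dlx4a* (chromosome 3) share their chromosome with no other Dlx gene of the table. *dlx1a* and *dlx2a* lie 6551 bp apart on chromosome 9 with no gene row between them, and both rose with *bmp*. They were at or near the detection limit with *chordin*, but were low in uninjected embryos too (0.0625 and 0.652 CPM). Their *chordin* and uninjected libraries overlapped. *dlx3b* and *dlx4b* lie 7695 bp apart on chromosome 12, and here *dlx3b* had 841 counts in the *bmp* libraries together, whereas *dlx4b* had 8. *dlx5a* and *dlx6a* lie 1263 bp apart on chromosome 19. *dlx6a* was tested in each comparison and *dlx5a* only with *chordin* against uninjected embryos, and neither was called. *dlx6a*, a partner of *dlx5a* in pharyngeal arch patterning, had 0.947 ± 0.752, 1.46 ± 1.08 and 1.95 ± 1.27 CPM in the uninjected, *bmp* and *chordin* groups (SD, n = 3), which overlapped.

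The other 4 Msx and Dlx genes of the table, among them *dlx6a*, were all low. *dlx2b*, the paralogue of *dlx2a*, had 2, 0 and 0 counts in the uninjected libraries, 29, 5 and 62 in the *bmp* libraries and 0, 0 and 0 in the *chordin* libraries. Its groups did not overlap between *bmp* and uninjected embryos, and the *bmp* level was 61.0 times the uninjected level by summed counts (95% interval 16.4 to 511, counting error only). It was too low for the fit, and the exact permutation test gave p = 0.1, the smallest possible. *dlx4a* had 9, 1 and 21 counts in the uninjected libraries, 10, 5 and 8 in the *bmp* libraries and 6, 5 and 1 in the *chordin* libraries. *msx2a* had 14, 0 and 0 counts in the uninjected libraries, 20, 27 and 0 in the *bmp* libraries and 1, 19 and 3 in the *chordin* libraries. Both overlapped between groups.

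For *msx1b* and *dlx3b*, the Msx and the Dlx gene with the highest mean CPM over the 9 libraries under the rule for naming genes, the genes with the most similar profile were looked up among 15670 genes. Likeness was the root mean square difference over the 9 libraries of log2(CPM + 0.5), each gene centred on its own mean. The nearest to *msx1b* was *si:dkey-208k4.3* (difference 0.306), with 8.73 ± 4.41, 10.3 ± 1.32 and 2.23 ± 1.44 CPM in the uninjected, *bmp* and *chordin* groups (SD, n = 3). *npdc1b* (0.338) had 3.11, 3.35 and 1.10 CPM, and *si:dkey-103d23.5* (0.338) had 16.2, 23.1 and 6.22 CPM, in the same order of groups. The nearest to *dlx3b* was a gene model with only a clone-based symbol (0.436, the orange line in the *dlx3b* panel of the plot of nearest profiles), with 4.59 ± 0.759, 38.2 ± 6.56 and 4.45 ± 2.71 CPM. *ldlrad4a* (0.485) had 1.20, 10.9 and 1.28 CPM, and *dpysl3* (0.498) had 1.01, 11.1 and 0.937 CPM. In both sets the profile repeats that of the leading gene over groups, as the rule requires.

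**Figure D4:**
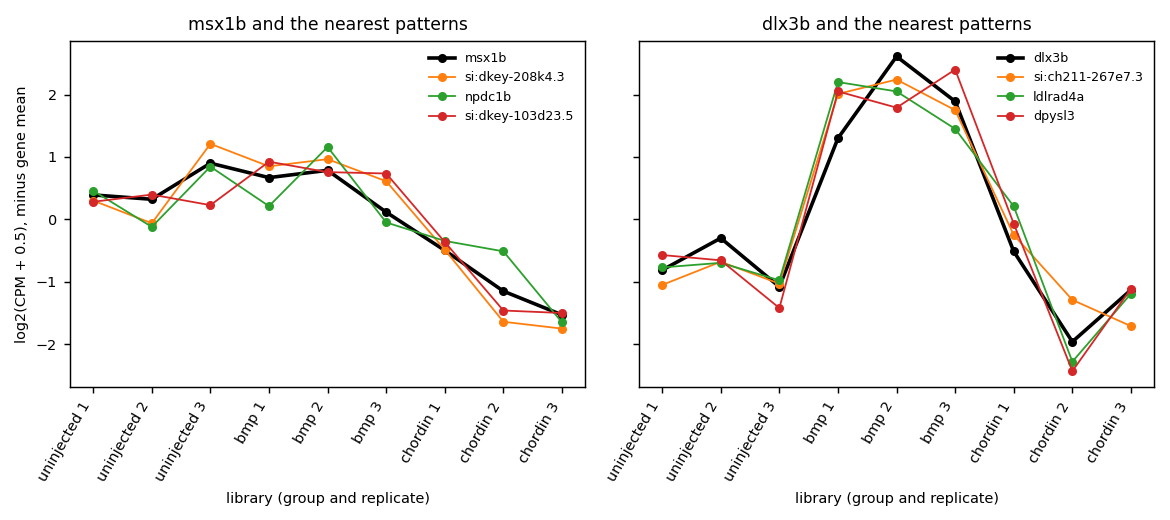
Centred log2(CPM + 0.5) (y axis) of *msx1b* (left) and *dlx3b* (right), in black, and of the 3 genes nearest to each by root mean square difference (colours), in each of the 9 libraries (x axis). *msx1b* and its nearest genes have their lowest values in the *chordin* libraries, and *dlx3b* and its nearest genes have their highest values in the *bmp* libraries.

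The members were set beside 2 lists of early ectoderm genes, which were also written with earlier results of these data known. The list of border and ventral ectoderm genes has 22 members, of which 18 were tested with *bmp*, and 6 rose and 3 fell (median log2 fold change 0.12, all genes 0.0105). Among all genes tested with *bmp*, 1.72% were called higher and 1.43% lower. The genes that rose hold *gata2a*, *foxi1* and *tfap2c*. The paper picked these as BMP targets from the same libraries, for a rise with *bmp* and a fall with *chordin*. *gata2a*, a zinc finger factor of ventral ectoderm, had 115, 370 and 31.3 CPM in the uninjected, *bmp* and *chordin* groups, and rose with *bmp* by 1.69 on the log2 scale (SE 0.099, adjusted p = 4.71e-14, limma). *tp63*, a regulator of epidermal fate, had 9.58, 109 and 6.70 CPM and rose by 3.59 with *bmp* (SE 0.22, adjusted p = 2.31e-13, limma). The genes that fell with *bmp* were *foxd3*, *snai2* and *snai1b*, factors known from neural crest and mesoderm.

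With *chordin*, 19 genes of this list were tested, 3 fell (*tfap2c*, *gata2a* and *foxi1*) and 2 rose (*foxd3* and *prdm1a*), and the median log2 fold change was -0.16. Among all genes tested with *chordin*, 0.301% were called lower and 0.591% higher, with a median of 0.0038. All 3 genes that fell are among the targets that the paper picked from these libraries, so their calls were known in advance. *tfap2c*, an AP-2 factor of non-neural ectoderm, had 122, 278 and 17.1 CPM in the uninjected, *bmp* and *chordin* groups and fell by 2.89 on the log2 scale with *chordin* (SE 0.22, adjusted p = 5.44e-10, limma). *gata2a* fell by 1.87 (SE 0.16, adjusted p = 8.68e-09, limma). Between *bmp*-overexpressing and *chordin*-overexpressing embryos 6 of the 17 genes tested were higher with *bmp* and 2 were lower (median -0.044). The shares of all genes tested there were 2.19% higher and 2.85% lower (median 0.010).

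The list of neural plate genes has 24 members, of which 21 were in the table. With *bmp*, 9 of the 17 tested fell and 0 rose by limma (median log2 fold change -0.79), and at an unadjusted p under 0.05 13 were lower and 1 was higher. Among all genes tested, 1.43% were called lower and 1.72% higher (median 0.0105). The genes that fell hold *otx2* (0 CPM with *bmp*) and *her3* (0.169 CPM with *bmp*). Both entered the fit through the uninjected libraries alone and had to differ in order to be tested. The gene higher by unadjusted p was *zic1*, with a mean of 1.20 CPM in the uninjected and 3.86 CPM in the *bmp* libraries (adjusted p = 0.169, limma). *zic2b*, a zinc finger factor of the neural plate, fell by 0.77 on the log2 scale with *bmp* (SE 0.084, adjusted p = 5.97e-08, limma). With *chordin*, 6 of the 19 tested rose and 2, *sox3* and *sox2*, fell (median 0.97), where 0.591% of all genes tested were called higher and 0.301% lower (median 0.0038). *otx1a*, a factor of the anterior neural plate, went from 51.2 to 147.8 CPM (log2 fold change 1.56, SE 0.13, adjusted p = 7.50e-09, limma), and *her3*, a repressor of neurogenesis, from 11.2 to 61.3 CPM (2.46, SE 0.23, adjusted p = 4.07e-08, limma). Between *bmp*-overexpressing and *chordin*-overexpressing embryos 11 of the 19 tested were lower with *bmp* and 0 were higher by limma (median -2.91), and at an unadjusted p under 0.05 14 were lower and 2 were higher. The shares of all genes called there were 2.85% lower and 2.19% higher (median 0.010).

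Markers of other cell types moved with the groups in part. Among all genes tested, 1.72% were called higher and 1.43% lower with *bmp*, and 0.591% higher and 0.301% lower with *chordin*. Of 3 neuronal genes (*elavl3*, *neurog1* and *elavl4*), *elavl3* rose with *bmp*. The summed level of the 3 was 2.60 to 11.5 CPM in uninjected, 19.4 to 35.3 CPM in *bmp* and 3.06 to 9.96 CPM in *chordin* libraries. This sum separates the *bmp* libraries, as the summed Dlx level does, but it rests on *elavl3*. The means of *elavl3* were 5.94, 27.9 and 5.88 CPM in the uninjected, *bmp* and *chordin* groups. Those of *elavl4* were 0.492 CPM in uninjected and 0.503 CPM in *bmp* embryos. *neurog1*, which marks neuronal precursors, was at or below 0.592 CPM in the group means. The 3 organizer genes *gsc*, *chd* and *noto* all fell with *bmp* and all rose with *chordin*, the injected mRNA being counted for *chd*. Of 5 genes of the mesendoderm margin (*ta*, *tbx16*, *ndr1*, *ndr2* and *mixl1*) 3 rose with *bmp* and 1 rose with *chordin*, and their summed level was 1450.5 to 1530 CPM in uninjected, 1763 to 1880 CPM in *bmp* and 1312 to 1458 CPM in *chordin* libraries. The summed level of the ectoderm genes (*sox3*, *sox2*, *foxi1* and *gata2a*) separated all groups in the same order as the summed Msx level. It was 727.5 to 846 CPM in uninjected, 1006.4 to 1108.3 CPM in *bmp* and 486.7 to 515 CPM in *chordin* libraries. Of these 4 genes, 2 (*foxi1* and *gata2a*) rose and 1 (*sox2*) fell with *bmp*, and all 4 fell with *chordin*. The paper picked *foxi1* and *gata2a* as BMP targets from these libraries, so the order of this sum was in part known in advance. The means of *sox3* were 543, 470 and 403 CPM in the uninjected, *bmp* and *chordin* groups. Those of *sox2* were 90.3, 52.2 and 59.4 CPM, and neither gene had the order of the sum. The summed level of 3 endoderm genes (*sox32*, *sox17* and *foxa2*) also separated all groups, but was lowest with *bmp*. It was 135.5 to 152.1 CPM in uninjected, 107.3 to 116 CPM in *bmp* and 192.7 to 201.7 CPM in *chordin* libraries, and 1 of the 3 rose with *chordin*. Most of this sum was *sox32*, with means of 135, 102 and 170 CPM in the uninjected, *bmp* and *chordin* groups. The mean of *foxa2* went the other way with *bmp*, from 5.41 to 10.6 CPM. Of 6 enveloping layer genes 1 fell with *bmp*, and their summed level overlapped between the uninjected libraries (7091 to 10315 CPM) and those of the *bmp* (7559 to 8128 CPM) and *chordin* (8572 to 9337 CPM) groups. No gene of the neural crest and germ cell sets was called in either comparison with uninjected embryos. In the crest set *crestin* had no count and could not be called, and *sox10* and *mitfa* had group means of at most 1.22 CPM. The crest set does not hold *foxd3*, *snai2* and *snai1b*, which fell with *bmp*. The part of these cell types in the levels of the Msx and Dlx genes was not tested.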

How the data were processed

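RNA was sequenced from 9 zebrafish embryo samples, 3 in each of the groups named in the sample labels. Per the labels, the libraries were made from poly(A) RNA and are not directional. Per the paper's methods, reads were aligned to GRCz10 with STAR 2.4.1b, and groups were compared with published count-based and transcript-based programs. HTSeq and Cufflinks are also named among the processing tools, without a version or a role, so how reads were assigned to genes is not stated. The authors deposited read counts per gene as whole numbers, not normalized, in 3 tables, each for a pair of groups. The deposited count columns carry digit separators and are held as another kind of value in the table of units, so a count-model test was not used. The 9 count columns shared between tables were identical. The authors' columns of fold changes, p-values, group values and calls were not used.

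The separators were removed. Genes were kept if 3 or more libraries reached the CPM that equals 10 counts in a library of median size and if the total was 15 counts or more. TMM factors were computed on these genes, with 30% of the fold changes and 5% of the levels trimmed, and limma 3.58.1 in R 4.3.3 was fitted with voom weights to the 6 libraries of each pair of groups. The threshold for a call was an adjusted p under 0.05 (Benjamini-Hochberg, over all genes tested). The fit was tested on simulated counts. Members outside a fit were compared by an exact permutation test of mean CPM. Depth was 8861308 to 22372856 counts. Intervals of summed counts are exact 95% intervals of a ratio of counts and cover counting error only.

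Named genes are the 9 members, the other Msx and Dlx genes, the 3 genes nearest to the highest Msx and Dlx member, the injected genes, and for 2 lists the 2 genes with the smallest p in each comparison with uninjected embryos. The value of 1 gene named by this rule is not reported here. *foxd3*, *snai2*, *snai1b*, *foxi1*, *prdm1a*, *sox3*, *sox2*, *zic1*, *six3b* and the marker genes singled out were named after their values were seen. Members and lists were chosen with earlier results of these data known. Coordinates are those of the tables, whose starts count from 0, written here from 1. The alternatives were no filter, RLE size factors, limma-trend, all 3 groups in a fit, a replicate block, an unadjusted p and each library left out. TMM factors over all rows were added after seeing the data. Tables and plots used Python 3.11.15, pandas 2.3.3, scipy 1.17.1 and matplotlib 3.10.9.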

Additional observations from a re-analysis of the deposited data

How the results depend on the processing

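The rises of *msx1a*, *msx3*, *dlx2a* and *dlx3b* with *bmp* passed the threshold in 12 of 12 other settings, and the rise of *dlx1a* in 6 of 12, the 6 losses being those with a library left out. Of the members, 5 were called with *bmp*, 4 in each fit with a library left out, and 5 in each other setting. With *chordin*, 1 was called, 3 at an unadjusted p under 0.05, 2 without the filter on low counts, 2 with limma-trend and 2 with the replicate block, the added calls in the last 3 being that of *msx3*. With a library left out the number was 0 to 1, and it was 0 without *chordin* replicate 3. Between *bmp* and *chordin* embryos 6 were called, and 4 to 6 with a library left out.

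Over all genes, 528 were called with *bmp*, 371 to 876 with a library left out (876 without uninjected replicate 1) and 712 with the replicate block. With *chordin* 148 were called, 110 to 388 with a library left out (388 without uninjected replicate 1) and 333 with the replicate block. Between *bmp* and *chordin* embryos 843 were called, 645 to 841 with a library left out and 1015 with the replicate block. Same-numbered libraries were hardly correlated in their deviations from group means (-0.0055 to 0.0712), so the numbers were not taken as pairs, although in the *bmp* comparison every library correlated best with its own number.

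The sign of values near 0 was not stable. *msx1b* with *bmp* was -0.0070 on the log2 scale with limma-trend and -0.099 to 0.236 with a library left out. *dlx5a* with *chordin* was -1.54 to 0.26 with a library left out. The cause of these changes was not tested beyond the fewer libraries in each fit. With RLE size factors, the 24 group means of the members above 0 CPM moved by less than the SD between replicates, and the other 3 are at 0 in either case. The levels of *msx2b*, *dlx4b* and *dlx5a*, and the *chordin* levels of *msx1a*, *msx3*, *dlx1a* and *dlx2a*, rest on few counts.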
